A study of Mus musculus with 12 samples.

Results

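The 190 array probes described here are the brightest probes with a Celera gene identifier (mCG) in wild-type mouse oocytes. On each of the 6 wild-type arrays the 33012 gene probes were ranked by signal, rank 1 being the brightest. Probes with a mean rank of 200 or less were taken, and 190 of these 200 carried an mCG identifier, 189 different ones. The wild-type signals therefore chose the members, and those signals and ranks are given as a description with no test. The files do not pair mCG identifiers with gene symbols, and 0 of the 27930 mCG probes found a symbol in the RefSeq gene table, so the members are named by identifier and probe number and no function can be given for them.

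The series compared mature oocytes titled Dicer Knock-Out with mature oocytes titled Dicer Wild-type, on 6 arrays each. The labels give no allele, Cre driver, strain, age or number of animals. The material is described as a single cell, and how many oocytes stood behind an array is not given, so spreads and p-values cover these arrays and may be technical. The knockout arrays carry the lower of the running codes in the titles, and what these codes count is not given. Any order they stand for cannot be told apart from genotype. Precision is limited by the small number of arrays.

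A full-grown mouse oocyte has largely stopped transcription, and maturation, fertilization and the start of cleavage run on messenger RNAs stored during growth. These maternal transcripts are masked, translated or degraded at set times. Dicer cuts microRNA precursors into microRNAs and long double-stranded RNA into small interfering RNAs. In mouse oocytes small interfering RNAs are known to act on retrotransposon transcripts.

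The oocyte identity of the arrays could be checked on few markers. Of 36 oocyte symbols, 4 had a probe with a symbol: Mos, Obox1, Obox2 and Obox3. All 4 were above background (signal over noise of 3 or more) on all knockout arrays and 3 on all wild-type arrays, Mos lacking on 1. Obox1, an oocyte homeobox gene, ranked 2 to 17 on the knockout arrays and 2 to 5 on the wild-type arrays. Of 17 cumulus and granulosa, 3 theca and 3 blood symbols, Sfrp4 and Hba-a1 had a named probe. Sfrp4 passed that limit on 1 knockout array and no wild-type array, and Hba-a1 on 1 array of each genotype.

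All 190 members were above background on all 12 arrays, the lowest signal over noise being 13.5. Signals are given here in MU, the SI prefix mega applied to the scanner's intensity unit. The members spanned 0.0245 to 3.65 MU in knockout oocytes and 0.0720 to 3.66 MU in wild-type oocytes. Over the members the median of the per-probe median was 0.394 MU in knockout oocytes and 0.229 MU in wild-type oocytes. Knockout arrays were brighter as a whole. Unscaled, the median member was 1.39-fold as bright on the knockout arrays as on the wild-type arrays, while the median of the 6088 tested probes was 2.62-fold as bright. Of the members, 129 had a higher and 61 a lower mean log2 unscaled signal in knockout oocytes. Choosing members for high wild-type signal favours a smaller fold than that of other probes, so nothing is read from the gap.

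The brightest probes of wild-type oocytes were among the brightest of knockout oocytes too. The leading member, mCG15763.2, held ranks 2 to 9 (median 4.5) on the knockout arrays and 1 to 3 (median 1) on the wild-type arrays. Its signal was 2.02, 2.73 and 3.21 MU (lowest, median, highest) on the knockout arrays, against 1.87, 2.23 and 3.66 MU on the wild-type arrays. The groups overlapped in both rank and signal. The second, mCG22663.2, held ranks 1 to 15 (median 7.5) in knockout oocytes and 1 to 6 (median 2.5) in wild-type oocytes. For mCG132455.1 the ranks were 1 to 29 (median 18) in knockout oocytes and 3 to 9 (median 7) in wild-type oocytes. Both overlapped between the groups, and the knockout arrays were the more spread. For mCG59040 the ranks were 12 to 29 (median 16.5) in knockout oocytes and 2 to 8 (median 5) in wild-type oocytes, with no overlap. The probe of mCG4172.2 stood at 9 to 18 (median 17) in knockout oocytes and 2 to 10 (median 5) in wild-type oocytes. All 5 ranked 29 or better on every array, and 8 of the 10 probes with the lowest mean rank in knockout oocytes were members.

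**Figure D1:**
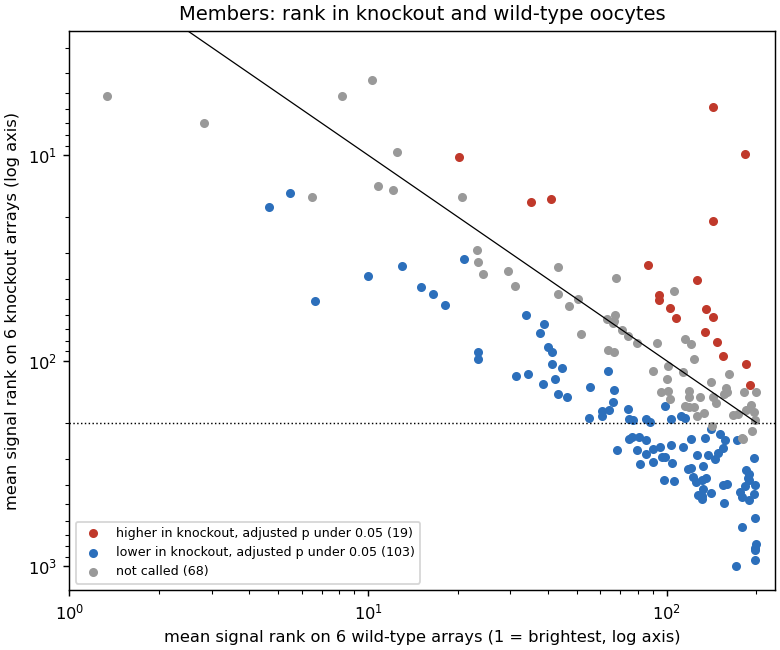
Mean signal rank of each of the 190 members on the 6 knockout arrays (vertical, log axis, brightest at the top) against the 6 wild-type arrays (horizontal, log axis). The line marks equal rank and the dotted line a knockout rank of 200. Above the dotted line lie 124 members, and 142 lie below the line of equal rank. Colours give the limma calls (19 higher, 103 lower, 68 not called), beside 28% higher and 22.4% lower of all tested probes.

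On the knockout arrays, which the rule did not use, 124 of the 190 members (65.3%) had a mean rank of 200 or less, 170 were within 400 and 189 within 1000. The mean knockout rank of a member ran from 4.33 to 1001, with a median of 150 and quartiles of 65.8 and 267. The median of the mean wild-type rank was 103. Array by array, 114 to 130 members (median 118) were in the top 200 of a knockout array, against 175 to 180 (median 179.5) of a wild-type array. No knockout array reached the wild-type range. Of the members, 92 were in the top 200 of every knockout array, 50 of some and 48 of none, and 81 were in the top 200 of all 12 arrays. A set chosen as highest in wild type tends to stand lower elsewhere by that choice, so these counts are not a measure of loss.

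The mean ranks of the members kept part of their order between genotypes, with a Spearman correlation of 0.65 across 190 probes that share arrays and labelling. The 44 members of wild-type ranks 1 to 50 all had a mean knockout rank under 200, at 4.33 to 149 (median 40.9). Of the 46 ranked 51 to 100, 32 did (69.6%, median knockout rank 169). Of the 56 ranked 101 to 150, 32 did as well (57.1%, median 183), and of the 44 ranked 151 to 200, 16 did (36.4%, median 255). Beyond the bound, 29 of the 180 mCG probes with wild-type ranks above 200 and up to 400 reached the knockout top 200 (16.1%, median 399). The share in the knockout top 200 was thus smaller in each band further down the wild-type order.

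The bound is a cut through a continuous order. The last members were mCG13148.3 (mean wild-type rank 199) and mCG15927.2 (199.5), and the first mCG probes outside were mCG16433.1 and mCG5447.2, 1.5 and 4.2 places beyond mCG15927.2. On the knockout arrays their mean ranks were 141 and 777 inside the bound, against 199 and 290 outside it. Only mCG15927.2 was outside the top 500 there, at ranks 538 to 1154 in knockout oocytes, against 168 to 253 in wild-type oocytes.

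The same rule applied to the knockout arrays gave 187 mCG probes. The 124 shared probes were 65.3% of the members and 66.3% of the knockout list. Among the 66 members that were not on the knockout list, the median log2 difference (knockout minus wild type, quantile-normalized) was -1.42. Among the 63 mCG probes that the knockout list held instead, it was 3.27. Of these 63 probes, 34 had a mean wild-type rank above 400 and 24 above 1000. Both sets were picked by being high in 1 genotype and lower in the other, so these medians are a description and are not compared. Taking each array's own 200 brightest probes, pairs of knockout arrays shared 156 to 182 of them (median 172, 15 pairs), pairs of wild-type arrays 174 to 188 (median 181, 15 pairs) and mixed pairs 113 to 141 (median 123, 36 pairs). No mixed pair shared as many as any pair of 1 genotype.

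Signals were next set against all other probes. They were quantile-normalized over the 12 arrays, which gives every array the same distribution, and tested with limma over the 6088 probes above background on at least 6 arrays. All 190 members were tested. At an adjusted p under 0.05, 19 members were called higher in knockout oocytes, 103 lower, and 68 were not called. Over all tested probes 50.4% were called, 28% higher and 22.4% lower. By at least 2-fold, 5 members were higher and 70 lower, beside 24.8% and 17.4% of all tested probes. The median log2 difference was -0.60 over the members, 0.19 over all tested probes and -0.50 over the 180 mCG probes with wild-type ranks above 200 and up to 400. Since wild-type values chose the members, the choice favours lower calls and nothing is read from these counts. The list chosen on the knockout arrays had the opposite split, 80 higher and 41 lower of 187. Its 124 probes shared with the members held 19 higher and 41 lower, with a median of -0.20.

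By rank of the unscaled signal, which a factor per array cannot alter, 100 members stood lower on every knockout array than on any wild-type array, 14 stood higher and 76 overlapped. Over all tested probes the ranks did not overlap for 13.1% in the lower and 15% in the higher direction. This count uses the wild-type ranks too and is a description.

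**Figure D2:**
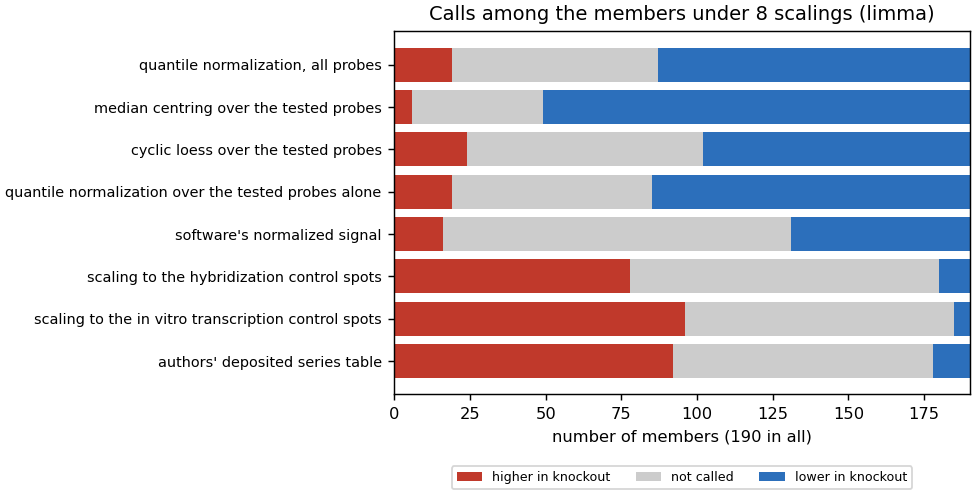
Number of the 190 members called higher in knockout (left part of a bar), not called, and called lower in knockout (right part), by limma at an adjusted p under 0.05, under 8 ways of scaling the arrays. Lower calls run from 141 with median centring to 5 with in vitro transcription controls, beside 29.5% and 1.02% of all tested probes.

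The direction for most members depended on the scaling. With arrays centred on their median, 6 members were higher and 141 lower, beside 22.9% and 29.5% of all tested probes. Scaled to the hybridization control spots, 78 were higher and 10 lower, beside 59% and 2.22% of all. With the in vitro transcription controls 96 members were higher and 5 lower, beside 69.1% and 1.02% of all. With the values the authors deposited, 92 were higher and 12 lower, beside 63.1% and 2.40% of all. The median of all tested probes moved with them, to -0.19, 1.34, 1.71 and 1.39 in the same order, and that of the members to -1.10, 0.43, 0.79 and 0.45. In each of these 4, as with quantile normalization, the median member lay below the median tested probe, which the choice of members favours. The brightness of the arrays moved with genotype here, and its part in the members' differences was not tested.

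Among the members, the largest rise was that of a probe of mCG18393.2 (902685). Its signal was 1.80, 2.20 and 2.99 MU (lowest, median, highest) on the knockout arrays, against 0.0915, 0.134 and 0.297 MU on the wild-type arrays. All 6 knockout arrays were above all 6 wild-type arrays. The ranks were 4 to 19 in knockout oocytes and 137 to 222 in wild-type oocytes. On the normalized log2 scale it stood at 20.80 ± 0.30 against 17.87 ± 0.24 (SD, n = 6 each), a 7.62-fold difference, and its log2 difference stayed between 2.34 and 4.24 over 8 scalings. Next came the member probe of mCG140318 (898470), at 2.36, 2.45 and 3.22 MU in knockout oocytes and 0.0734, 0.179 and 0.385 MU in wild-type oocytes. Its ranks were 1 to 10 in knockout oocytes and 57 to 258 in wild-type oocytes, again with no overlap. The normalized difference was 6.87-fold (log2 difference 2.78 ± 0.28 SE, and 2.16 to 4.06 over 8 scalings).

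The largest fall was that of mCG147807. Its signal was 0.0253, 0.0393 and 0.0490 MU on the knockout arrays, against 0.104, 0.150 and 0.212 MU on the wild-type arrays. The groups did not overlap even without scaling, although knockout arrays were brighter in general. Ranks were 820 to 1235 in knockout oocytes and 128 to 219 in wild-type oocytes, and the log2 difference was -3.29 ± 0.24 (SE), between -3.62 and -1.73 over 8 scalings. The probe of mCG11071.2 was second, at 0.0245, 0.0497 and 0.0586 MU in knockout oocytes and 0.0956, 0.131 and 0.204 MU in wild-type oocytes. Its ranks were 719 to 1077 in knockout oocytes and 139 to 241 in wild-type oocytes, with a log2 difference of -2.94 ± 0.23 (SE), between -3.24 and -1.34 over 8 scalings. These 4 members were called in the same direction under all 8 scalings, and mCG147807 and mCG11071.2 also had the highest mean knockout ranks of all members, at 1001 and 936.

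**Figure D3:**
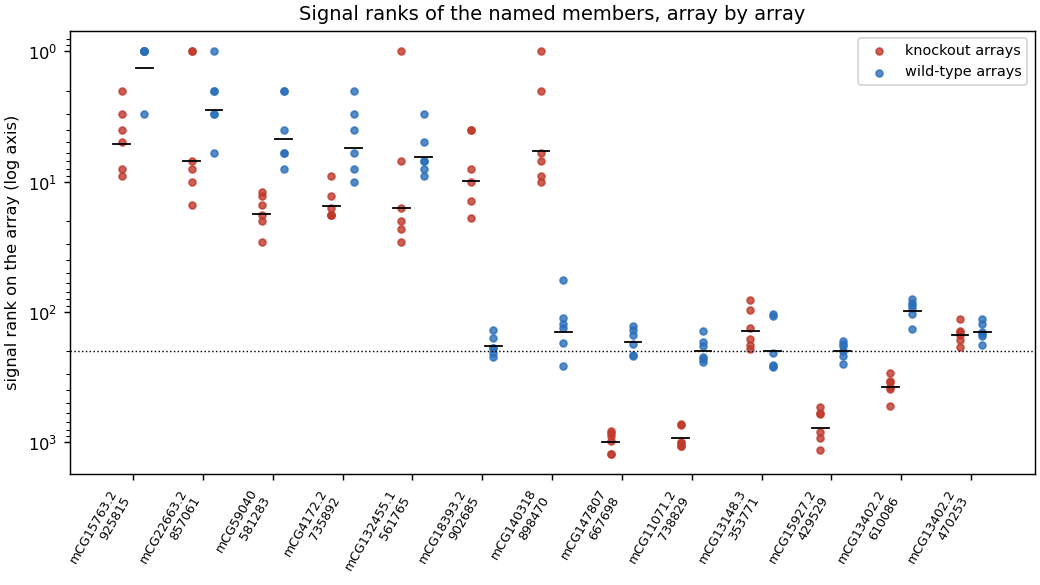
Signal rank of each named member on every array (log axis, brightest at the top), knockout arrays left and wild-type arrays right for each probe, with the mean as a bar and a dotted line at rank 200. The 5 leading members stay near the top in both groups, mCG18393.2 and mCG140318 stand within the first 19 places on every knockout array, and mCG147807 and mCG11071.2 stand at 719 to 1235 there.

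The brightest probe did not always speak for its identifier. For 37 identifiers of members the array held 42 other probes, which the rule did not choose. Of these, 2 had a mean wild-type rank within 400, 13 within 5000 and 29 beyond it, and 14 were above background on no wild-type array. The members were chosen as bright, which favours a lower place for the other probes of their identifiers. Whether probes of 1 identifier read the same transcript was not tested. The members are therefore called brightest probes here, not most abundant transcripts. Probes also differed within mCG13402.2, the one identifier with more than 1 member. Its probe 610086 ranked 294 to 532 in knockout oocytes and 80 to 136 in wild-type oocytes, while its probe 470253 ranked 114 to 186 and 113 to 179 in the same order. The log2 differences were -1.93 ± 0.22 and -0.05 ± 0.18 (SE). That of probe 610086 was -0.78 with the hybridization controls and -0.41 with the in vitro transcription controls, where it was not called.

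The other probes are not free of the wild-type values either, since they are probes that missed the bound there. Of the 22 tested, 11 were higher and 2 lower in knockout oocytes (limma, adjusted p under 0.05), beside 28% and 22.4% of all tested probes, and 4 of the 11 belonged to mCG140318. Another 3 of the 11 were above background on 5 or 6 knockout arrays and on 0 or 1 wild-type arrays, and so entered the tested set through the knockout arrays, where they were high. The count is therefore a description. With the hybridization controls, 16 of these 22 were higher, beside 59% of all tested probes, and with median centring 8 were higher and 3 lower, beside 22.9% and 29.5%. In 12 of 22 pairs of an other probe and its member the log2 differences had the same sign. Both probes were called in 9 pairs, 7 of them in the same direction, and 4 of the 7 were again pairs of mCG140318. For mCG18393.2 the other probe (895165) was higher as well, at ranks 563 to 857 in knockout oocytes and 1516 to 2037 in wild-type oocytes (log2 difference 2.17 ± 0.26 SE, limma adjusted p = 2.72e-05).

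All 5 probes of mCG140318 were higher in knockout oocytes, though their wild-type levels differed widely. This identifier was singled out after its values were seen, so its differences and calls are a description. Besides the member, probe 900403 had a signal of 2.31, 2.55 and 2.96 MU in knockout oocytes, against 0.0313, 0.0605 and 0.142 MU in wild-type oocytes (log2 difference 4.15 ± 0.23 SE). Probe 897391 ranked 23 to 31 in knockout oocytes and 535 to 946 in wild-type oocytes (4.60 ± 0.23). Probe 891995 ranked 21 to 46 in knockout oocytes and 918 to 1729 in wild-type oocytes (64.1-fold on the normalized scale). The dimmest, probe 919772, ranked 403 to 891 in knockout oocytes and 2097 or beyond in wild-type oocytes, where 5 of 6 arrays were above background (4.73 ± 0.77). No wild-type array reached any knockout array for these 4 probes, and each was called under all 8 scalings. Probes of 1 identifier may read overlapping transcripts and are not independent of each other.

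**Figure D4:**
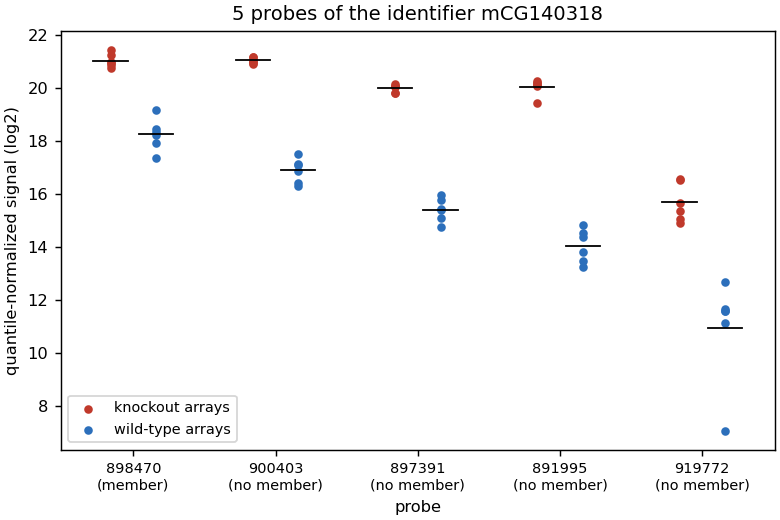
Quantile-normalized log2 signal of the 5 probes of mCG140318 on each knockout array (left of each pair) and wild-type array (right), with the mean as a bar. All knockout arrays lie above all wild-type arrays for each probe, and the wild-type means run from 18.26 for the member to 10.96 for probe 919772.

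Only 3 mCG probes outside the members had a mean knockout rank of 20 or less. One was probe 900403 of mCG140318. The probe of mCG1042507.1 ranked 6 to 23 in knockout oocytes and 913 to 2180 in wild-type oocytes, with signals of 1.54 to 2.17 MU against 0.00217 to 0.0160 MU. That of mCG140644 ranked 13 to 24 in knockout oocytes and 764 to 1323 in wild-type oocytes, with 1.44 to 1.91 MU against 0.00557 to 0.0220 MU. For mCG1042507.1 and mCG140644 every wild-type signal was below the lowest wild-type signal of any member, 0.0720 MU, while those of probe 900403 overlapped the members' range. All 3 are named for their knockout ranks, so their differences are a description.

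The members took a smaller part of the signal in knockout oocytes. Summed, they held 37.7% to 44.1% (median 41.9%) of all probe signal on the knockout arrays, against 56% to 58.9% (median 57.7%) on the wild-type arrays, as a description of a set chosen on wild type. Freed of that choice, each array's own 200 brightest probes held 55.2% ± 3.0 of its summed signal in knockout oocytes and 61.4% ± 1.3 in wild-type oocytes (SD over the 6 arrays of each genotype). An exact permutation test over arrays, two-sided, gave p = 0.00216 for this difference of -6.24 percentage points, and no lower p is possible with 6 arrays in each group. All 6 knockout arrays (51.3% to 58.8%) were below all 6 wild-type arrays (59.8% to 62.9%). The brightest probe was 8.57 to 13.0 times as bright as the probe at rank 200 on the knockout arrays, and 15.7 to 21.3 times on the wild-type arrays.

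Detection differed between the genotypes as well. Knockout arrays had 7361 to 9598 probes above background and wild-type arrays 5707 to 7102. The knockout array with the fewest, replicate 2, had the highest knockout share (58.8%), and the wild-type array with the most, replicate 2, had the lowest wild-type share (59.8%). Within a genotype the order did not hold throughout: wild-type replicate 5 had the second most probes (6769) and the highest wild-type share (62.9%), and wild-type replicate 4 had the fewest (5707) and a share of 60.2%. Shares also tended to be lower on brighter arrays (median over tested probes, in scanner units). Knockout replicate 2 was the dimmest of its group (2736) and had its highest share. Knockout replicates 3 (5937) and 5 (6732) were its brightest, at 51.3% and 52.0%. Wild-type replicate 2 was the brightest of its group (2580) and had its lowest share. The dimmest, wild-type replicate 6 (1069), did not have the highest, at 61.8%. The parts of detection and of brightness in the difference in share were not tested. Over the 1000 brightest probes the difference was -1.31 percentage points, with an exact permutation p of 0.0823. Further out the knockout shares were no longer the lower ones. They were 91.5% to 93.3% over 2000 probes, against 89.8% to 92.7% on the wild-type arrays. Over 5000 probes they were 96.1% to 97.4%, against 93.6% to 96.4%.

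**Figure D5:**
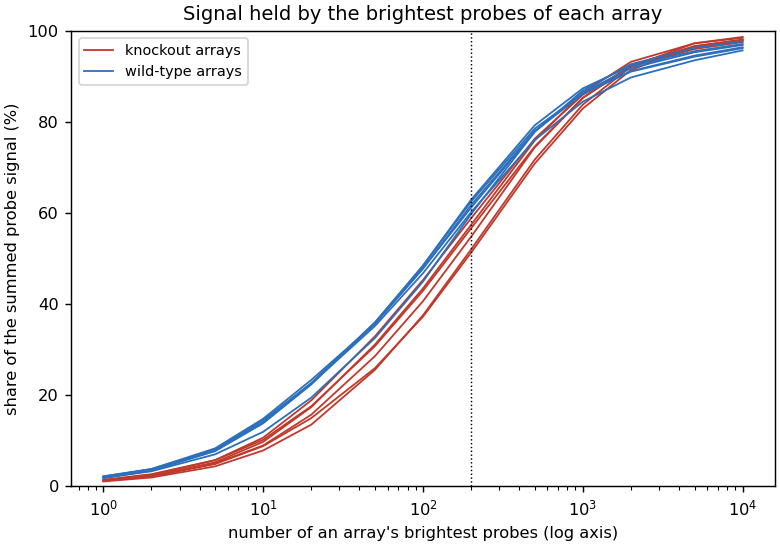
Share of an array's summed probe signal (vertical, percent) held by its own brightest probes (horizontal, number of probes, log axis), 1 line per array, with a dotted line at 200. At 200 the knockout lines stand at 51.3% to 58.8% and the wild-type lines at 59.8% to 62.9%.

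A flag value of 4, whose meaning the headers do not give, marked only very bright spots, from 0.714 MU upward. It stood on 85 member spots of the knockout arrays and 28 of the wild-type arrays, of 2280 member spots in all, and 23 members carried it at least once. The members were spread evenly over the array, 93 in the rows up to 120 and 97 in the others, for which the software's normalized signal uses different factors.

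Members varied little between arrays of 1 genotype. The median SD of their normalized log2 signal was 0.28 between knockout arrays and 0.22 between wild-type arrays. It was 0.33 and 0.25 for mCG probes with wild-type ranks above 200 and up to 400, and 0.57 and 0.69 for all tested probes, in the same order of groups. Quantile normalization leaves the few brightest probes little room to vary, and the mean rank rule favours probes with steady ranks on the wild-type arrays.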

How the data were processed

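Oocyte RNA was extracted with Trizol and amplified into digoxigenin-labelled cRNA by a reverse transcription and in vitro transcription protocol, per the labels' protocols. The arrays were Applied Biosystems Mouse Genome Survey Microarrays, read with AB1700 software, per the file headers. The deposited scanner files hold a linear intensity signal, its error, an intensity normalized by the software, a score of signal over noise, and flags, an other unit, per the file headers. The deposited series table holds linear intensity values by the authors, made by steps that no header or label records.

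Flags of 5000 and above made a spot missing, and members needed 4 wild-type arrays with a value. Signals of all probes were quantile-normalized and log2-transformed. Knockout minus wild type was fitted with limma 3.58.1 (R 4.3.3, lmFit and eBayes, two-sided, Benjamini-Hochberg over all tested probes). The fit was tested on simulated data in which far fewer probes changed than were called here. It recovered 29% of 2-fold and 70% of 4-fold changes over all tested probes, and 5.71% of its calls were false. These shares are for all tested probes, whose median SD between arrays (0.57 knockout, 0.69 wild type) exceeded that of the members (0.28 and 0.22). Recovery for the members alone was not measured. A member that was not called may still differ. An array's own share of signal was compared by an exact permutation test. Symbols came from a RefSeq gene table of GRCm38.p6 (317 probes matched, by accession or synonym).

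The members and lists were chosen with earlier results of these data known. Identifiers were named by rule: the 5 lowest wild-type ranks, the 2 largest rises and falls, the 2 highest knockout ranks, the 2 on each side of the bound, shared identifiers, and non-members with a knockout rank of 20 or less. Alternatives were scaling, filters, offset, rank bound and leaving out each array. No sequences are shown, since the members could not be paired with annotated genes.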

Additional observations from a re-analysis of the deposited data

Results flagged for a closer look

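One wild-type array lay apart for 1 of 40 groups of 6 values examined, while about 1 in 20 is flagged by chance alone. The leading member, mCG15763.2, stood at 21.17 (normalized log2 signal) on replicate 1 of the wild-type arrays, against 21.42 on each of the other 5. It was the brightest probe on those 5 arrays, where quantile normalization gives it the same value by construction, and ranked 3 on replicate 1.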

How the results depend on the processing

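With a bound of 100 in place of 200, there were 90 members, of which 52 had a mean knockout rank within the same bound, and the median mean knockout rank was 81.9. With a bound of 400 these were 370, 260 and 261. A rank of 200 or less on every wild-type array left 150 members. Leaving out an array in turn gave 184 to 190 members, 120 to 125 of them in the knockout top 200. The median knockout rank was then 146 to 155. Of the members, 17 to 20 were called higher and 95 to 102 lower, beside 25.3% to 29.8% and 20.6% to 22.7% of all tested probes. The difference in the share of the 200 brightest probes was -6.97 to -5.46 percentage points.

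The counts of member calls moved most with scaling. With quantile normalization 19 members were higher and 103 lower, and of the 6088 tested probes 1705 and 1361 (28% and 22.4%). Hybridization controls gave 78 and 10 of the members and 3591 and 135 of all. In vitro transcription controls gave 96 and 5, and 4204 and 62. The authors' deposited values gave 92 and 12, and 3842 and 146. Median centring gave 6 and 141, and 1393 and 1796. The software's normalized signal gave 16 and 59, and 2080 and 511. Testing all 33012 probes gave 8 and 82, and 1733 and 1112 (5.25% and 3.37%). Restricted to probes above background on all 12 arrays, 20 members were higher and 110 lower. Of all such probes 703 and 1203 were called (23.6% and 40.4%), so that lower calls outnumbered higher ones. Over the 1000 brightest probes the difference in share was -1.31.

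Some log2 differences changed sign. With hybridization controls, in vitro transcription controls and the deposited table, in that order, mCG15763.2 stood at 0.10, 0.47 and 0.12, mCG22663.2 at 0.25, 0.62 and 0.30, mCG4172.2 at 0.12, 0.49 and 0.16, and mCG132455.1 at 0.18, 0.55 and 0.21. Probe 470253 of mCG13402.2 stood at 1.02, 1.38 and 1.03, at 0.13 with cyclic loess, at 0.30 with the software's signal, and between -0.11 and 0.0096 with an array left out. For mCG59040 in vitro transcription controls gave 0.32. Probe 610086 of mCG13402.2 lost its call with in vitro transcription controls, at -0.41 (limma adjusted p = 0.243). The cause was not tested. No paired analysis was possible because replicate numbers follow sample order only.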

Other observations

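The wild-type top 200 also held 10 probes without an mCG identifier, 8 with AK accessions, 1 with a BC accession and 1 with a RefSeq accession, that of Obox1. Of these, 6 had a mean rank of 200 or less on the knockout arrays, the mean knockout ranks running from 5.67 to 550. In limma 6 were called lower and 4 were not called at an adjusted p under 0.05, beside 22.4% of all tested probes called lower. Their median log2 difference was -0.79. As for the members, wild-type values chose these probes and favour lower calls.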
